A study of Rattus norvegicus with 6 samples.

Results

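Genes of the cartilage and fibrocartilage matrix were followed in the Achilles tendon of newborn rats: Col2a1, Col9a1, Col9a2, Col11a1, Acan, Hapln1, Chad and Cytl1. These are 8 of 9 genes chosen by name for their role in cartilage, with earlier results of these data known. They are out of 14217 genes that at least 1 probe set of the array named alone. The ninth, Sox9, was not analysed here. The value of each was read from the probe set naming it alone that was brightest on average. The 8 genes had 15 such probe sets, and the 7 that did not serve as the gene's value were kept as a check. Tendons of rats on post-natal day 1 (3 arrays) and post-natal day 7 (3 arrays) were dissected under a microscope, with no genotype, strain or sex stated. Each array carried RNA pooled from at least 2 animals, so the errors and p-values below measure the spread between pools, and day 7 was compared with day 1 to find transcripts that differ over the first week of post-natal growth.

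Cartilage matrix is a network of thin collagen fibrils that holds a gel of aggregating proteoglycan. Type II collagen forms the fibrils, type XI collagen lies within them and limits their width, and type IX collagen decorates their surface. Aggrecan binds hyaluronan, with link protein locking the complex, and its sulphated chains draw in the water that lets the tissue bear compression. Tendon is mainly a type I collagen tissue that bears tension. It makes cartilage-type matrix where it is compressed, in the fibrocartilage at its insertion into bone and where it wraps around bone. SOX9 is the transcription factor that drives the genes of this matrix in chondrocytes.

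The tendon markers Tnmd and Scx read between 2279 and 6822 and between 603 and 897 over the 6 arrays. The median intensity of the probe sets was between 20.5 and 21.1 on the 6 arrays. The bacterial trp probe sets served as negative control, since rat RNA holds no such transcript, and read between 3.74 and 4.76, so values under about 9.51, which is 2 times its highest reading, are too close to that level for a reliable fold change. Along the first principal component (51.1% of the variance) the ages were separate, and the arrays numbered 2 came nearest to each other, with scores of -14.8 on day 1 and 14.5 on day 7. Day 1 replicate 1 stood apart in skin genes: the intensities of 9 epidermal markers summed to 6014 on it and to between 187 and 484 on the other 5 arrays. The 3'/5' ratio of beta-actin, a measure of RNA integrity, ran from 1.80 to 2.85 on day 1 and from 2.17 to 3.35 on day 7. The highest beta-actin ratio was on day 7 replicate 3, which also had the highest 5S rRNA signal, 63.2 against 28.9 to 36.3 on the other arrays. The epidermal, ratio and 5S values did not separate the ages, and their part in the results below was not tested.

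All 8 genes had a log2 change above 0, as did 48.0% of all genes, with values between 0.43 and 1.38 and a median of 1.20, against a median of -0.01 over all genes. Col9a2 and Cytl1 rose at an adjusted p under 0.05 (limma, adjusted over 31042 probe sets), and none of the 8 fell. Across all genes 1.93% rose and 3.15% fell by the same rule, so 2 of 8 lay above that share, in a set too small for the share to be firm. The genes were chosen with earlier results of these data known. The counts in this paragraph are therefore a description, and a higher share than over all genes is not independent of that choice. The 8 all had an unadjusted p under 0.05, which 10.6% of all genes had with a higher day 7 value. On 7 of the 8, every day 7 array lay above every day 1 array, a separation found in this direction in 14.0% of all genes. The exception was Acan. Without Chad and Col9a1, which read under 2 times the negative control on some arrays and have no usable fold, the log2 changes of the 6 others lay between 0.995 and 1.38, with a median of 1.33. A log2 change of at least 1, found in 1.15% of all genes, was reached by 5 of the 8. In a bulk sample, more cells that make cartilage matrix and more of the transcript in each cell cannot be told apart.

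**Figure D1:**
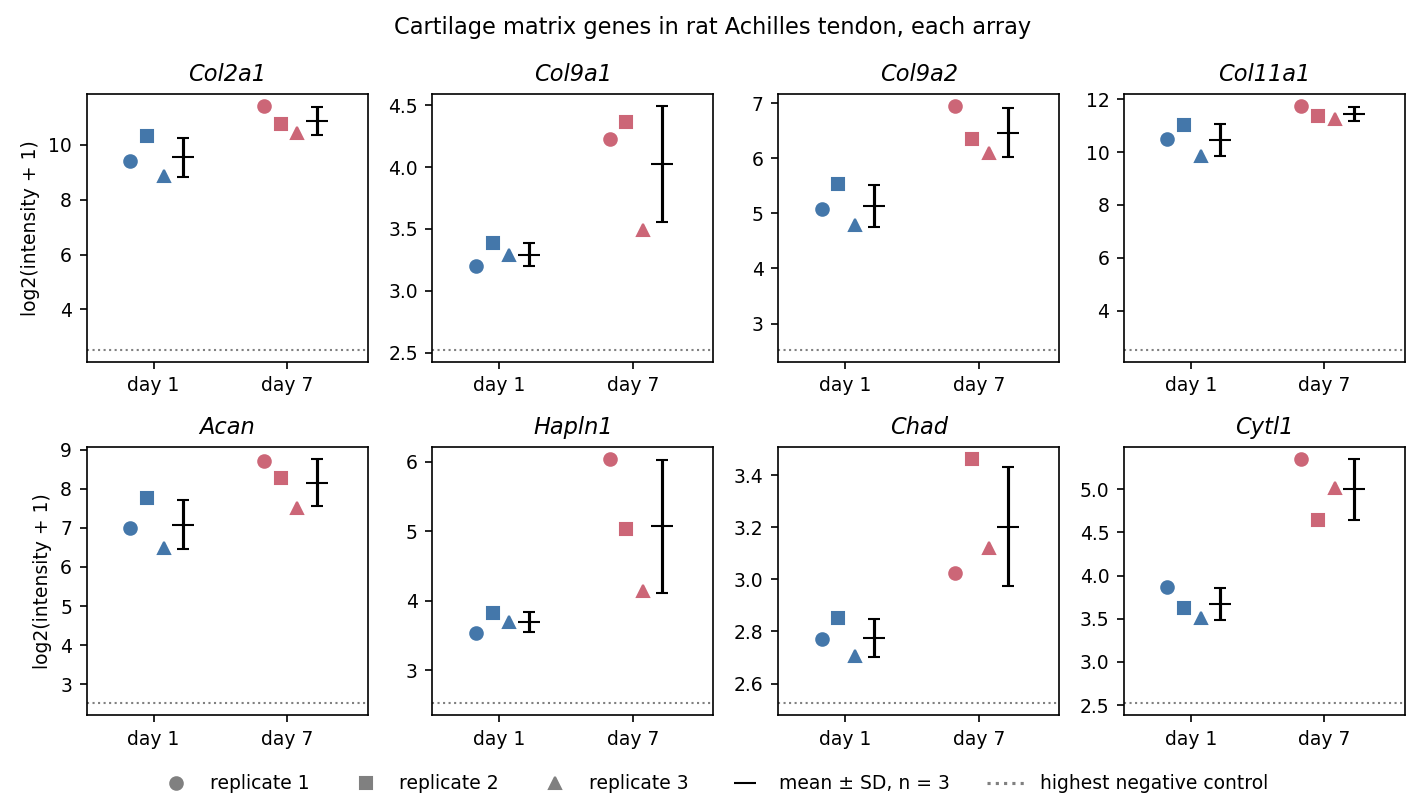
Each panel plots 1 gene as log2(intensity + 1) on every array, with blue symbols for day 1 and red for day 7, the symbol shape for the replicate number, and bars for the mean ± SD of 3 arrays; the vertical scale differs between panels and the dotted line marks the highest negative control reading. The day 7 symbols lie above the day 1 symbols in every panel but that of Acan, and Chad and the day 1 values of Col9a1 lie near the dotted line.

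Type II collagen is the main fibril of cartilage. Col2a1, which encodes its single chain, read 684, 1281 and 471 on day 1 and 2759.9, 1719 and 1391 on day 7 (replicates 1, 2 and 3, as in every such series below). The lowest day 7 array lay just above the highest day 1 array, replicate 2. The means were 812 ± 420 on day 1 and 1957 ± 715 on day 7 (SD, n = 3), and the log2 change of 1.33 (SE 0.38, 95% interval 0.46 to 2.20) did not pass (limma adjusted p = 0.0932). The spread within day 1 was thus wide beside the difference, and without day 1 replicate 2 the log2 change was 1.72 with an adjusted p of 0.0399. That was the only 1 of the 6 fits without 1 array in which Col2a1 passed (limma adjusted p up to 0.250). The probe sets of Col2a1 did not give 1 size of change: the second changed by 0.90 (adjusted p = 0.144) and the third by 0.18 (95% interval -0.70 to 1.07; adjusted p = 0.8195). On the third, day 1 replicate 2 was the highest of all 6 arrays at 73.8.

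Type XI collagen copolymerises with type II collagen, and its chains are also made in tendon, where they take part in fibril assembly. Col11a1 read 1441, 2086 and 911 on day 1 and 3448, 2608 and 2415 on day 7. The ages did not overlap, with day 1 replicate 2 again nearest to day 7. The log2 change was 0.995 (SE 0.29; limma adjusted p = 0.0964). Its second probe set read between 98.6 and 165 on day 1 and 587, 234 and 228 on day 7, a log2 change of 1.35 (adjusted p = 0.0852) in which day 7 replicate 1 alone was far above the rest. The third changed by 0.47 (adjusted p = 0.316), with ages that overlapped. Col11a2, the partner chain, read 710, 1306 and 424 on day 1 and 2065, 1495 and 1222 on day 7, and the log2 change, 1.09, did not pass (adjusted p = 0.1499). It shows the same order of arrays as Col2a1 and overlaps between ages at day 1 replicate 2.

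Type IX collagen is a heterotrimer of chains from 3 genes that sits on the surface of type II fibrils and does not form fibrils itself. Col9a2 read 32.8, 45.6 and 26.6 on day 1 and 123, 80.8 and 67.3 on day 7. Every day 7 array lay above the day 1 arrays by a clear gap, and the fold difference was 2.52 in favour of day 7 (log2 change 1.33 with SE 0.26, 95% interval 0.74 to 1.93; limma adjusted p = 0.0377). Col9a1 read 8.18, 9.46 and 8.77 on day 1 and 17.7, 19.6 and 10.3 on day 7. Its day 1 values all lay under 2 times the negative control, so no fold change is given for it; day 7 replicates 1 and 2 were clear of that level and replicate 3 barely so (adjusted p = 0.103). Col9a3, the remaining chain, read 17.6, 28.6 and 30.3 on day 1 and 47.2, 28.4 and 48.7 on day 7, so the ages overlapped (log2 change 0.68; adjusted p = 0.181). On it day 7 replicate 2 was the low array, while on Col9a1 the same array was the highest. Col9a3 and Col11a2 were named after their values were seen, because they complete the type IX and type XI molecules.

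Aggrecan, encoded by Acan, is the large proteoglycan that gives cartilage its resistance to compression. It read 127, 214 and 88.9 on day 1 and 414, 306 and 179.9 on day 7. Day 7 replicate 3 lay below day 1 replicate 2, so the ages overlapped. The means were 143 ± 64.2 and 300.03 ± 117 (SD, n = 3). The log2 change was 1.07 (SE 0.37; limma adjusted p = 0.147). The second probe set of Acan (log2 change 1.01; adjusted p = 0.128) had the same highest and lowest array at each age. Acan did not pass in any of 16 alternative fits (adjusted p from 0.0599 to 0.363).

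Link protein, encoded by Hapln1, fastens aggrecan to hyaluronan. Hapln1 read 10.6, 13.2 and 12.0 on day 1 and 64.9, 31.7 and 16.6 on day 7. The day 1 arrays were close to each other and low, while the day 7 arrays spread widely, with replicate 3 just above day 1. Its log2 change of 1.38 (SE 0.41, 95% interval 0.44 to 2.32) was the largest of the 8 as deposited and did not pass (limma adjusted p = 0.103). It was 1.34 after quantile normalization, 0.84 with 16 in place of 1 added and 0.79 with the mean of probe sets, and under each of these Col2a1 or Col9a2 had a larger change. Without day 7 replicate 3 it was 1.85 with an adjusted p of 0.04997. That was the only 1 of the 6 fits without 1 array in which Hapln1 passed (limma adjusted p up to 0.255). The other probe sets of Hapln1 read between 3.51 and 5.52 on day 1, at the negative control level, and at most 11.1 on day 7, on replicate 1.

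Chondroadherin and the CYTL1 protein are smaller secreted products of cartilage. Chad, which encodes the leucine-rich protein chondroadherin that binds collagen and integrin, read 5.83, 6.22 and 5.52 on day 1 and 7.14, 10.0 and 7.70 on day 7. In this gene 5 of 6 arrays lay under 2 times the negative control, so the values show a low signal with a higher day 7 and no usable fold (limma adjusted p = 0.124). Cytl1, which encodes a cytokine-like protein first known from blood progenitors and made by chondrocytes, read 13.6, 11.4 and 10.3 on day 1 and 39.6, 24.0 and 31.3 on day 7. The day 1 values lay only just above 2 times the negative control, about 9.51, so the fold below rests on a low day 1 signal. The lowest day 7 array stood well above the highest day 1 array. Its values on day 7 were 2.52-fold those on day 1 (log2 change 1.33 with SE 0.19, 95% interval 0.90 to 1.77; limma adjusted p = 0.0190). It had the smallest p of the 8, at position 184 of 31042 probe sets. The means were 11.8 ± 1.69 on day 1 and 31.6 ± 7.83 on day 7 (SD, n = 3). When 16 in place of 1 was added before the logarithm, the change of Cytl1 was 0.77 and still passed (adjusted p = 0.0460), while that of Col9a2 was 1.05 and did not (adjusted p = 0.0753).

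**Figure D2:**
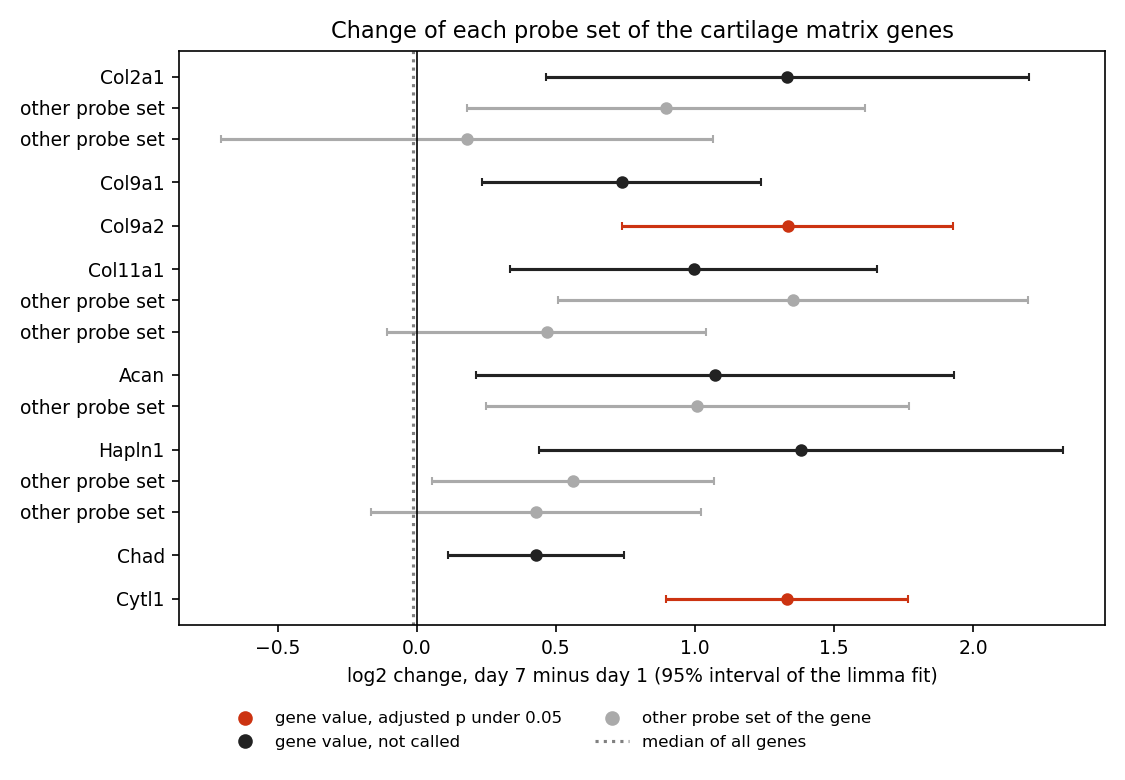
The horizontal axis is the log2 change, day 7 minus day 1, and each point with its bar is 1 probe set with the 95% interval of the limma fit; red marks gene values with an adjusted p under 0.05, black other gene values and grey the other probe sets. All 15 points lie above 0, the red ones are Col9a2 and Cytl1 at 1.33, and the third probe sets of Col2a1, Col11a1 and Hapln1 have bars that cross 0.

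Of the 7 other probe sets, which belong to 4 of the genes, all 7 had a log2 change above 0 and 0 passed. The remaining 4 genes, Col9a1, Col9a2, Chad and Cytl1, had no second probe set, so neither of the genes that rose has such a check.

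The number of the 8 that rose changed when single arrays were left out, as did the share of all genes. The count of 2 became 0 without day 1 replicate 1, without day 1 replicate 3 or without day 7 replicate 1, and in these fits the share of all genes that rose dropped from 1.93% to 0.183%, 0.429% and 0.0281%. The loss of calls there was thus general. Without day 7 replicate 2 the count was 1 (Cytl1), with 1.41% of all genes. It became 4 without day 1 replicate 2, when Col2a1 and Col11a1 passed beside Col9a2 and Cytl1, with 1.91% of all genes. Without day 7 replicate 3 the count was again 2, but of other genes, Col9a1 and Hapln1, with 0.612% of all genes. The direction was the same in each of these fits: all 8 genes had a log2 change above 0 whichever array was left out. Over the same 6 fits the log2 change of Cytl1 stayed between 1.16 and 1.51 (adjusted p from 0.0167 to 0.0794) and that of Col9a2 between 1.09 and 1.54 (adjusted p from 0.0367 to 0.126). With array weights, which gave day 1 replicate 1 the most weight, 6 of the 8 passed, all but Acan and Chad, and the share of all genes that rose was 3.78%.

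**Figure D3:**
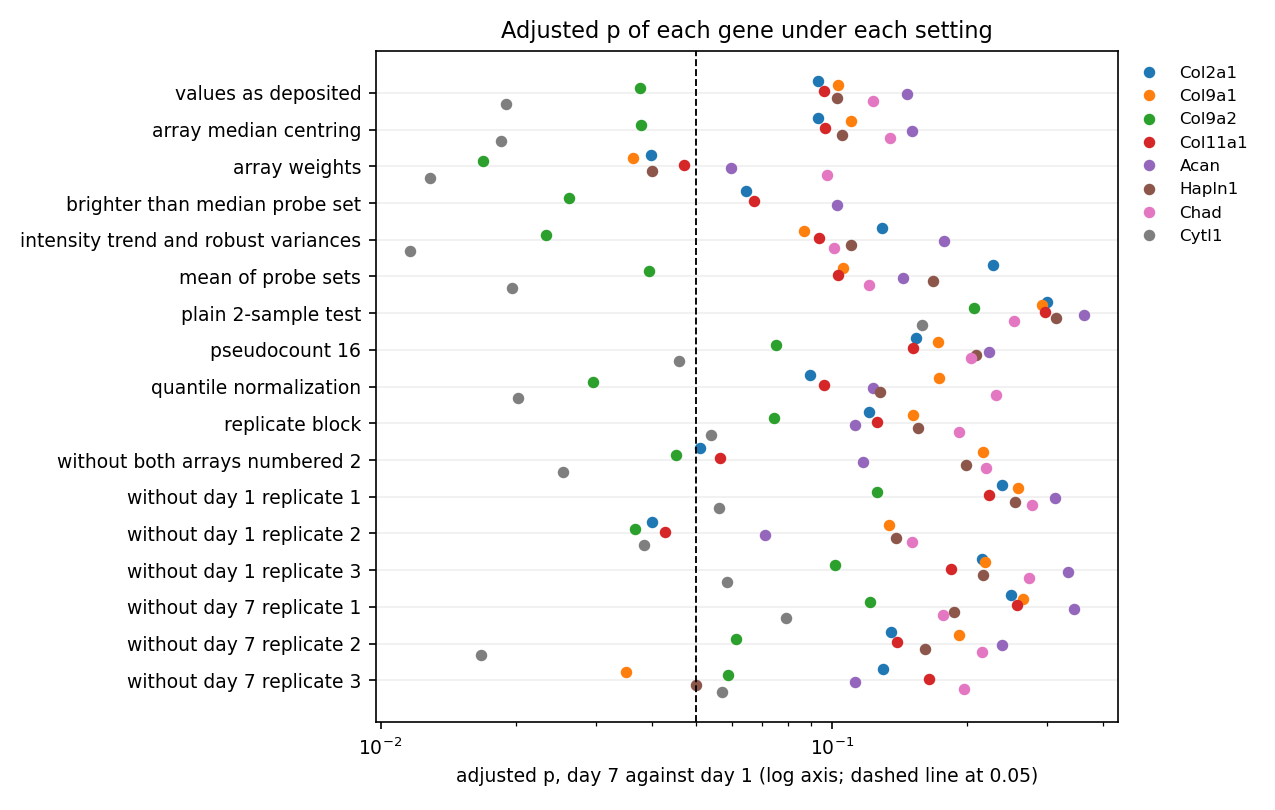
Each row is 1 way of fitting the data and each point 1 gene, placed by its adjusted p on a log axis with a dashed line at 0.05; a gene without a point was removed by that setting's filter. Cytl1 and Col9a2 lie left of the line with the values as deposited and cross it in 4 and 5 of the 6 fits without 1 array, and Acan and Chad lie right of it in every row.

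Of the 8 genes, Col2a1, Col9a2, Col11a1 and Acan had the same order of arrays within each age. On day 1, replicate 2 was the highest array for 7 of the 8, and replicate 3 was the lowest for 6. On day 7, replicate 1 was the highest for 6 and replicate 3 the lowest for 6. Averaged over the 8 genes, each taken relative to its own mean over the 6 arrays, the log2 deviations were -0.57, -0.20 and -0.84 on day 1 and 0.94, 0.54 and 0.14 on day 7. The difference of 0.80 between day 7 replicates 1 and 3 was larger than the gap of 0.34 between the nearest arrays of the 2 ages. The other genes departed from this order. Chad had its lowest day 7 value on replicate 1 and its highest on replicate 2, and Cytl1 its lowest on replicate 2 and its highest day 1 value on replicate 1. Col9a1 and Hapln1 had their lowest day 1 value on replicate 1, and Col9a1 its highest day 7 value on replicate 2.

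Markers of other tissues also differed between these arrays. The median of 12 tendon genes was -0.16, 0.08 and -0.54 on the day 1 arrays and 0.41, 0.14 and 0.13 on those of day 7, again with replicate 2 high on day 1 and replicate 1 high on day 7. Of these 12, Dcn and Comp rose and Egr1 fell, with a list median of 0.37; without 1 array Dcn kept its call in 1 of 6 fits, Comp in 2 and Egr1 in 4. The median of 21 skeletal muscle genes ran the other way, with 0.46, 0.14 and 0.65 on the day 1 arrays and -0.50, -0.01 and -0.83 on those of day 7; 1 rose and 5 fell. The median of 13 adipocyte genes, of which 9 rose and none fell, stood between -1.06 and -0.86 for day 1. On day 7 it was 0.99, 0.45 and 1.33, so that day 7 replicate 3 was the highest for fat genes and the lowest for the cartilage matrix genes. Schwann cell genes, 9 in all, were at 0.67, -0.70 and 0.98 on the day 7 arrays, against -0.65 to -0.45 for day 1. The summed intensity of the muscle list ran from 66172 to 82516 on day 1 and from 42283 to 60419 on day 7, and that of the adipocyte list from 1671 to 1855 and from 3260.0 to 6762. The part of these tissues in the cartilage matrix result was not tested.

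**Figure D4:**
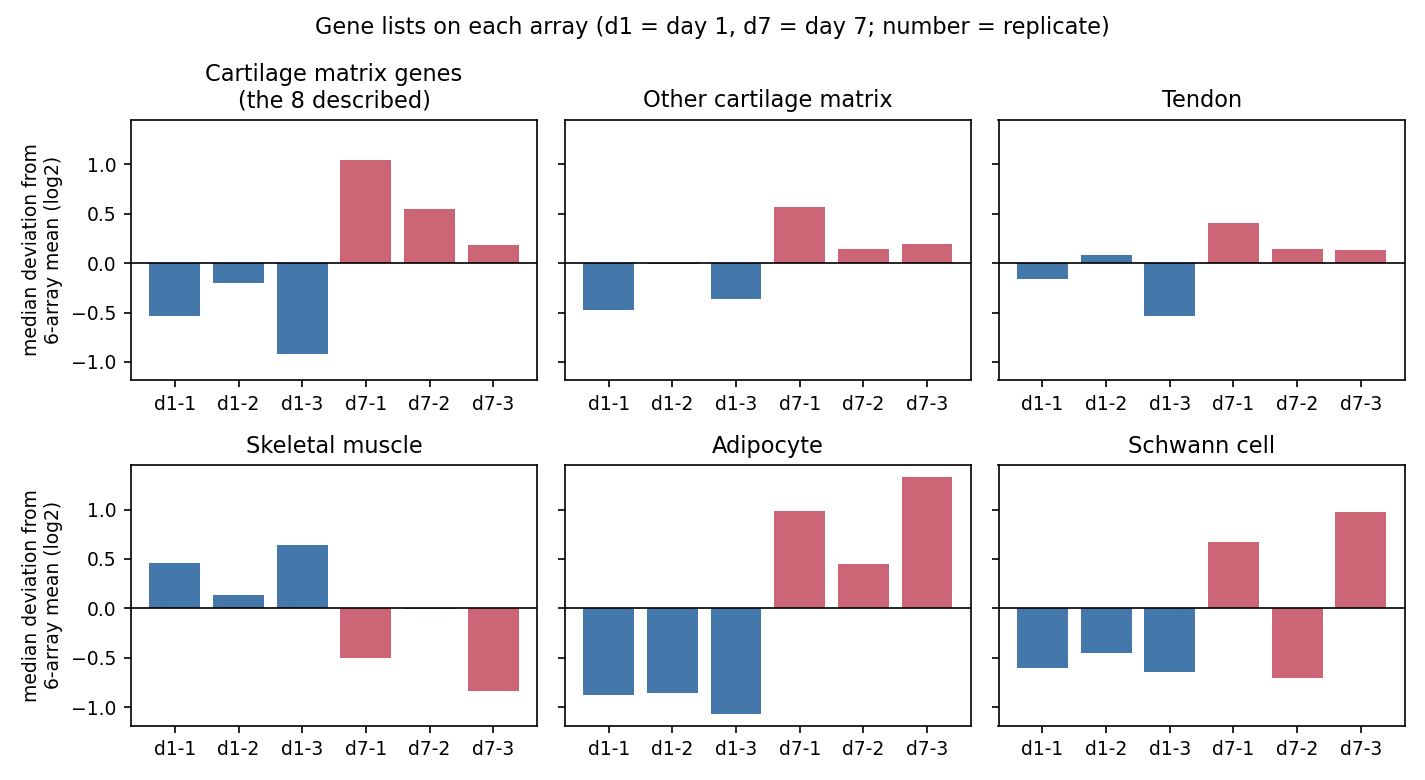
Bars give, for each array, the median over a gene list of the log2 deviation from the mean of the 6 arrays, blue for day 1 and red for day 7. The 8 cartilage matrix genes and the tendon list are highest on day 7 replicate 1 (1.05 and 0.41), whereas the adipocyte and Schwann cell lists are highest on day 7 replicate 3 (1.33 and 0.98) and the muscle list is lowest there (-0.83).

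Both cartilage genes that could be set against a counterpart of fibrous tissue had a higher difference on day 7. A permutation test of 3 arrays against 3 cannot reach a p under 0.05 for any difference, so it could not decide here. The log2 difference of Col2a1 minus Col1a1, the main tendon collagen, was -3.91, -3.25 and -3.92 on day 1 and -2.44, -2.96 and -3.19 on day 7, a change of 0.82. With the mean of all probe sets of each gene in place of the brightest, the change was 0.265 (exact two-sided permutation p = 0.40). With the brightest the ages did not overlap, although Col1a1 itself had a log2 change of 0.51 (limma adjusted p = 0.179). The difference of Acan minus Vcan, which encodes versican, the large hyaluronan-binding proteoglycan of loose and embryonic connective tissue, was -2.89, -2.49 and -3.57 on day 1 and -1.06, -1.61 and -2.04 on day 7, a change of 1.41. Vcan had a log2 change of -0.34 (adjusted p = 0.196). In the exact two-sided permutation test both changes gave p = 0.10 (0.10 adjusted over the 2), the smallest value that 3 arrays against 3 allow. These differences are not ratios of abundance. The planned comparison of Sox9 with Scx was not run.

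Beyond the 8, of 13 further measured genes of cartilage matrix 2 rose and 0 fell, and the median log2 change over the 13 was 0.68. Scrg1, a small secreted protein induced in chondrogenesis, read 15.5, 17.4 and 19.1 on day 1 and 110.7, 68.9 and 44.6 on day 7 (log2 change 1.96; limma adjusted p = 0.0207). Clec3a, a cartilage lectin, read 6.78, 6.68 and 4.96 on day 1, close to the negative control, and 21.2, 18.7 and 12.5 on day 7 (adjusted p = 0.0209). Both keep the ages apart, and both calls were lost without replicate 1 or 3 of day 1, without replicate 1 of day 7 and with 16 in place of 1 added before the logarithm. Hapln3, a link protein related to Hapln1, had a log2 change of 1.02 (adjusted p = 0.0559). Matn1, a matrilin of hyaline cartilage, read between 7.71 and 13.2 over the 6 arrays, and Ucma, a growth plate protein, between 9.80 and 12.5, with no order by age; both were named after their values were seen.

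Regulators and later stages of cartilage gave few calls. Of 17 measured regulators of chondrogenesis, Zbtb20, a zinc finger repressor that acts in hypertrophic chondrocytes, rose (log2 change 0.57; limma adjusted p = 0.0326) and none fell, with a median of 0.20. The Zbtb20 call was kept in 0 of the 6 fits without 1 array. Arid5b, a DNA-binding cofactor in chondrocytes, had a log2 change of -0.41 (adjusted p = 0.0776). Fgf18, a growth factor for chondrocytes, had a log2 change of -0.92 (adjusted p = 0.0891). Trps1, another of the 17, had a log2 change of 0.76 (adjusted p = 0.133). At an unadjusted p under 0.05, 5 of the 17 were higher and 2 lower, beside 10.6% and 17.0% of all genes. Among 10 genes of hypertrophic cartilage none rose and Mef2c fell by 1.31 (log2; adjusted p = 0.0362); Mef2c is also a muscle transcription factor, and the muscle list was lower on the same arrays. Its call was lost without replicate 1 or 3 of either age and with 16 in place of 1. The defining hypertrophic collagen Col10a1 read between 6.34 and 8.81 over the 6 arrays, the collagenase Mmp13 between 3.70 and 5.33 and Panx3 between 3.76 and 4.75, all under 2 times the negative control. Of 10 osteoblast genes 0 passed limma, with 0 at an unadjusted p under 0.05, and bone sialoprotein, Ibsp, read at most 6.69.

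The enzymes that build and cut the proteoglycan were largely without calls. Of 21 genes of chondroitin sulphate synthesis 0 passed limma, with 4 higher and 1 lower at an unadjusted p under 0.05 and a median of 0.08. Papss2, which makes the sulphate donor for cartilage proteoglycans, read 151, 169 and 140.0 on day 1 and 259, 211 and 220.2 on day 7 (log2 change 0.58; adjusted p = 0.0523). Of 10 genes of hyaluronan synthesis and binding 0 passed, with 1 higher and 4 lower at an unadjusted p under 0.05. The higher gene was Hapln3, already given above with the further cartilage matrix genes. By the same unadjusted rule 10.6% of all genes were higher and 17.0% lower. The hyaluronan receptor Cd44 had a log2 change of -0.75 (adjusted p = 0.0636). Of 11 genes for aggrecan cleavage and its inhibitors, Mmp3 alone rose, from between 4.40 and 5.25 on day 1, at the negative control level, to between 32.1 and 135.7 on day 7 (adjusted p = 0.0141), and none fell. The Mmp3 call was lost without replicate 1 of either age and with 16 in place of 1 (adjusted p = 0.0604). Timp2, an inhibitor of matrix metalloproteinases, had a log2 change of 0.84 (adjusted p = 0.0501).

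Of 14 genes of fibrocartilage and the tendon insertion, 3 rose and 1 fell, with a median of 0.29. Comp, which encodes a collagen-binding glycoprotein of cartilage and tendon, read 225, 434 and 173 on day 1 and 1799.6, 1370.3 and 783 on day 7 (limma adjusted p = 0.0285). Cilp2, a cartilage intermediate layer protein, read 186, 291 and 95.2 on day 1 and 1239, 855 and 636 on day 7 (adjusted p = 0.0282). Both have the order of arrays seen for Col2a1, with replicates 2 and 3 the extremes of day 1 and replicates 1 and 3 those of day 7. Omd, osteomodulin, rose by 1.55 in log2 units (adjusted p = 0.0243) and Bmp4, a growth factor that acts in forming the insertion, fell by 0.98 (adjusted p = 0.0314). The calls of Comp, Cilp2, Omd and Bmp4 did not survive leaving out replicate 1 or 3 of day 1 or replicate 1 of day 7, and were also lost with 16 in place of 1 added before the logarithm. Those of Comp and Cilp2 were lost without day 7 replicate 2 as well, and those of Cilp2 and Bmp4 without day 7 replicate 3. Scx, the transcription factor of tendon and insertion progenitors, had a log2 change of 0.13 (adjusted p = 0.646).

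Over the 6 arrays, the genes whose log2 values were most like the mean profile of the 8 were Dcaf10, Cybrd1, Nek7, Ccdc125, Matn2, Mylip, Rragc and Nfia, with Pearson r from 0.994 to 0.996 among 9603 genes brighter than the median probe set. The arrays fall into the ages, so such an r mostly reads the difference between ages, and it is given without a p. Among the 8 nearest genes, Mylip, a ubiquitin ligase, was higher on day 7 (log2 change 1.11; limma adjusted p = 0.0469), and Matn2, a matrilin of connective tissues, fell short of the threshold (0.75; adjusted p = 0.0551). The Mylip call was kept in 0 of the 6 fits without 1 array and was lost with 16 in place of 1. With quantile normalization, 16 in place of 1, or the mean of probe sets, r for these genes ranged from 0.658 to 0.998.

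Promoters of the 2 genes that rose, and of Hapln1, whose change was the largest as deposited but not under every alternative, are shown. The sequences are the 250 bases before the annotated start from RefSeq's GRCr8 assembly, 5′ to 3′ on the gene's strand, where 7 of the 8 genes matched an entry. Capitals mark the SOX-type cores ACAAT and ACAAAG on either strand.
Col9a2, chr5:139892548-139892797, plus strand: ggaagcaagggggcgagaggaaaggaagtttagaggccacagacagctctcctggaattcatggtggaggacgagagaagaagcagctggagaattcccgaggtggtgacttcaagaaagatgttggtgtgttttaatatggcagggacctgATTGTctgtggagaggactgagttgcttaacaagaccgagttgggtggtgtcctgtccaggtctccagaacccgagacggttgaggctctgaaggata
Cytl1, chr14:77283646-77283895, minus strand: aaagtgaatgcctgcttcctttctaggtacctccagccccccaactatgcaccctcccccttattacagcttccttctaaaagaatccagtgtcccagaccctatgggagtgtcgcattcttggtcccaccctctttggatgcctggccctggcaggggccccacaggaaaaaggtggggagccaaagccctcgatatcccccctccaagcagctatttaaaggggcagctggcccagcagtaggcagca
Hapln1, chr2:22366717-22366966, plus strand: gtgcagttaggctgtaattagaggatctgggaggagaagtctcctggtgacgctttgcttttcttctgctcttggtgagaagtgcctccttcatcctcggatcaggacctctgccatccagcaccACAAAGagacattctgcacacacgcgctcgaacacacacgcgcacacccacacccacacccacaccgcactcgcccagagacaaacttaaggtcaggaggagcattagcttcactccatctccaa
Among the 7 promoters, ACAAT was found in 1, that of Col9a2, on the minus strand from position -98 counted back from the start. It was found in 30.0% of all 33469 RefSeq promoters of this length. ACAAAG was found in 1, that of Hapln1, on the plus strand from position -125, and in 16.3% of all promoters. The TATA box TATAAA, not marked in the sequences shown, was found in 1, that of Chad, from position -29, and in 12.9% of all promoters. No letter core was thus common to the promoters of genes that changed alike, and a match or its absence in this window says nothing of the factor. The G and C content of the 7 ran from 46.8% for Col9a1 to 73.6% for Acan, against 52.2% over all promoters.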

How the data were processed

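All 6 arrays were used, 3 of day 1 and 3 of day 7, grouped by their titles. The authors deposited a linear intensity for every probe set on every array. Per the submitters' processing notes MAS5 and RMA were used, with no role stated for either; the scaling and background correction behind the values are likewise not stated. Values were transformed to log2(value + 1) without further normalization. Of 31099 probe sets, 57 controls were left out; 20826 named 1 gene, 436 several and 9780 none. By gene ID, 20758 of the 20826 matched RefSeq GRCr8.

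Ages were compared by limma 3.58.1 in R 4.3.3 (lmFit, eBayes; two-sided, Benjamini-Hochberg over 31042 probe sets, adjusted p under 0.05). The fit was tested on simulated data. Genes and lists, written from textbook knowledge, were chosen with earlier results of these data known. Named were the 8 genes, genes taken from the 4 of smallest adjusted p in each list (not all of these are named, a choice made with values seen), 3 counterparts, the nearest genes by r, and defining markers near the control level; exceptions are marked. Depth here is signal over the negative control, and the number of arrays limits the precision. Alternatives covered normalization, filter, probe set, variance model, pseudocount, test, block and arrays left out.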

Additional observations from a re-analysis of the deposited data

How the results depend on the processing

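Under every alternative run the 8 genes, where they had a value, kept a log2 change above 0. The number of them that rose, 2 as deposited, was 6 with array weights, 1 among probe sets brighter than the median (4 of the 8 remain there), 1 with a pseudocount of 16, 0 with a plain 2-sample test and 0 with the replicate number as a block, and ranged from 0 to 4 when 1 array was left out. Over all genes, 274 rose and 448 fell as deposited, 538 and 897 with array weights, 182 and 393 with a pseudocount of 16, 352 and 320 after quantile normalization, 0 and 0 with the plain test (where limma had 1506 and 2411 at an unadjusted p under 0.05), and 4 to 271 and 0 to 382 without 1 array. The split between higher and lower calls thus depends on the scaling, while the 2 cartilage matrix genes passed under both. With the replicate block 25 genes rose and 8 fell. The deviations of same-numbered arrays from their age means had r of 0.05, -0.25 and -0.14. So few arrays cannot settle whether the numbers pair the pools, and the titles do not say. Without 1 array the change of Col2a1 minus Col1a1 ranged from 0.61 to 1.05 (0.265 with the mean of probe sets) and that of Acan minus Vcan from 1.12 to 1.66. Without 1 array the log2 change of Scx ranged from -0.013 to 0.273, below 0 without day 1 replicate 3, and those of the skin keratins Krt10 and Krt14 from -2.455 to 0.285 and from -2.401 to 0.459, above 0 without day 1 replicate 1, the array with the epidermal signal. The log2 changes of Matn1 (0.02) and Ucma (-0.0071) lay near 0 and changed sign: that of Matn1 was -0.089 with array weights, -0.051 after quantile normalization, -0.026 without both arrays numbered 2 and -0.128 to 0.225 without 1 array, and that of Ucma was 0.009 with array weights, 0.066 without both arrays numbered 2 and -0.083 to 0.08 without 1 array, with no adjusted p under 0.05. Also reversed was the within-age r of Znrf1 with the mean of probe sets (-0.094). Other causes were not tested. The alternatives for r were added after seeing the data. Signals near the negative control limit Chad, Col9a1 and the smaller probe sets of Hapln1. The day 1 values of Cytl1 (10.35 to 13.64) and of the main probe set of Hapln1 (10.63 to 13.21) lay only just above the level of 9.51.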

Other observations

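After each age's mean was subtracted, 9603 genes brighter than the median probe set were ranked by likeness to the mean profile of the 8. The most alike were Znrf1, Cdyl, Cpz, Nhlrc2, Cpxm2, Ptdss1, Akap17a and Rnf170 (Pearson r from 0.991 to 0.999 over 6 arrays, given as a description with no p). Not all of the 8 share this profile. The same r of a gene with the mean of the others was 0.98 for Col9a2, 0.32 for Cytl1 and -0.03 for Chad. Cpz, a secreted carboxypeptidase with a Wnt-binding domain, read 46.1, 63.9 and 32.9 on day 1 and 479, 339.9 and 210.1 on day 7 (log2 change 2.79; limma adjusted p = 0.0141). Cpxm2, a related secreted protein, read 70.2, 95.8 and 45.7 on day 1 and 843, 512 and 337 on day 7 (log2 change 2.94; adjusted p = 0.0141). On both, replicates 2 and 3 were the highest and lowest of day 1 and replicates 1 and 3 those of day 7, the order seen for Col2a1, Col9a2, Col11a1 and Acan. Neither call was kept when replicate 1 of either age was left out.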
